A study of Mus musculus with 11 samples.

Results

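Cytochrome P450 genes of families 1 to 3 were examined in the livers of mice fed a diet lacking methionine and choline (MCD), with and without the citrus limonoid limonin. The genes were chosen by symbol: Cyp, a family number from 1 to 3, a subfamily letter and a gene number. This gave 56 of the 31280 genes measured, in 16 subfamilies. In the limonin group, 6 wild-type C57BL/6 mice were kept on the MCD diet for 8 weeks and received limonin by gavage at 100 mg/kg for 4 weeks, while in the MCD group 5 wild-type C57BL/6 mice on the same diet for 8 weeks received water by gavage. Every comparison is thus between limonin and water on 1 diet, with no healthy diet beside it. Sex and age are not given in the labels. The Y-linked gene Ddx3y was detected in every library, at 1.84 to 5.11 FPKM with limonin and 2.64 to 3.7 FPKM with MCD, and Xist, the RNA that silences an X chromosome in females, ran from 0 to 0.0486 FPKM with limonin and from 0.0209 to 0.0962 FPKM with MCD. FPKM scale fragments to the length of the transcript and to the depth of the library, so levels of different genes can be set beside each other per length.

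Cytochrome P450 enzymes are heme proteins of the endoplasmic reticulum that insert oxygen into drugs, steroids, bile acids, retinoids and fatty acids, using electrons passed on by P450 reductase and cytochrome b5. Families 1 to 3 hold most of the drug-metabolising enzymes of the hepatocyte. Their best known regulators are the aryl hydrocarbon receptor (AhR), which induces Cyp1a genes, the constitutive androstane receptor (CAR), which induces Cyp2b10, and the pregnane X receptor (PXR), which induces Cyp3a11, and in rodents many members also differ between the sexes through the pattern of growth hormone release.

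Libraries and liver composition set the frame for these genes. Summed FPKM ran from 404050 to 462665 in limonin libraries and from 464184 to 471623 in MCD libraries, so the groups did not overlap. Families 1 to 3 made up 2.41 to 3.48% of summed FPKM with limonin and 1.75 to 2.36% with MCD. Of 19 tested hepatocyte markers, 7 rose with limonin, among them Fgg, Cps1, F2, Fgb, Alb and Fga, beside 7.24% of all tested genes. The other 12 were not called, and 0 fell. The 19 did not move together, with ratios of means (limonin over MCD) from 0.664 for Apoa1 to 2.99 for Fga. The summed level of the list was 46968 to 60998 FPKM with limonin against 41247 to 48520.4 FPKM with MCD. Of markers of other liver cells, those that fell were 10 of 12 tested stellate cell and fibroblast genes, 7 of 7 cholangiocyte genes, 6 of 7 genes of macrophages that enter the liver, 3 of 9 Kupffer cell genes and 4 of 4 B and T cell genes, beside 18.7% of all tested genes. Genes were tested if they reached 1 FPKM in at least 5 libraries. Cd79b, Mmp7, Sox9 and Trem2 met this through their MCD libraries alone. A lower limonin level was thus built into their entry, and their calls add no support to these counts. Cd79a met it through 4 MCD libraries and 1 limonin library. Of 10 listed B and T cell genes, 6 were not tested. Of 9 endothelial genes, Kdr rose, Eng fell and 7 were not called. Summed levels were 62.3 to 87.3 FPKM with limonin against 109.6 to 209.6 FPKM with MCD for the stellate list, and 28 to 98 FPKM against 78.9 to 466 FPKM for the cholangiocyte list. In bulk liver, more or fewer cells of a type and more or less RNA per cell cannot be told apart, and the part that these shifts take in the P450 values was not tested.

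Of the 56 genes, 42 passed the filter of 1 FPKM in at least 5 libraries, and 15 of these rose in limonin livers, 0 fell and 27 were not called (limma, Benjamini-Hochberg adjusted p under 0.05 over all 10489 genes tested). At an unadjusted p under 0.05, 0 members were lower and 21 higher. The 15 are 35.7% of those tested, against a background of 7.24% of all tested genes called higher and 18.7% called lower. A positive log2 fold change was found for 40 of the 42, against 41.1% of all tested genes, and the median was 0.39 against -0.07. Every limonin library lay above every MCD library for 6 of the 42 (Cyp2a12, Cyp2c29, Cyp2c70, Cyp2f2, Cyp2j5 and Cyp3a13), against 2.97% of all tested genes. Every limonin library lay below every MCD library for 0 of the 42, against 8.33% of all tested genes. Among the 15, 14 belong to family 2, 1 to family 3 and 0 to family 1. By tested members, 2 of 4 rose in subfamily 2a, 1 of 3 in 2b, 5 of 13 in 2c, 3 of 6 in 2d, 1 of 2 in 2j, 1 of 7 in 3a and the single members of 2f and 2g, while 0 rose among 2 members of 1a and the single members of 2e, 2r and 2u. Cyp2d11, called, and Cyp2c54, not called, passed the filter through their limonin libraries alone, so a higher limonin level was built into their entry, and without them 14 of 40 were called higher and 0 lower.

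How many rose depended on the scaling. With libraries set to an equal level of the hepatocyte markers, the median of all tested genes moved to -0.39 and that of the P450 members to 0.05. Then 5 members were called higher (Cyp2c29, Cyp2d11, Cyp2f2, Cyp2j5 and Cyp3a13) and 3 lower (Cyp2c69, Cyp2j6 and Cyp2u1). The factor for this, from the geometric mean of the markers, was 1.4038 in limonin 2, where Fga and Fgg were highest. It ran from 1.0488 to 1.1125 in the other limonin libraries and from 0.7775 to 0.9122 in MCD libraries. Whether this factor tracks the hepatocyte content of the livers was not tested. Median-ratio scaling, quantile normalization and equal summed FPKM gave 16, 18 and 19 higher and 0 lower. Over all tested genes, higher calls were 27.9% of calls in the deposited values, 48.1%, 52.9% and 49.6% under those 3 scalings and 1.8% with the hepatocyte markers set equal. The count was 8 without MCD 1, without MCD 2 or without MCD 5. The calls of Cyp2a12, Cyp2c29, Cyp2c70, Cyp2d11, Cyp2f2, Cyp2j5 and Cyp3a13 were kept in all 11 fits that left out 1 library. Cyp2d11, listed here and among the 5 above, passed the filter through its limonin libraries alone, so its calls add no support.

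**Figure D1:**
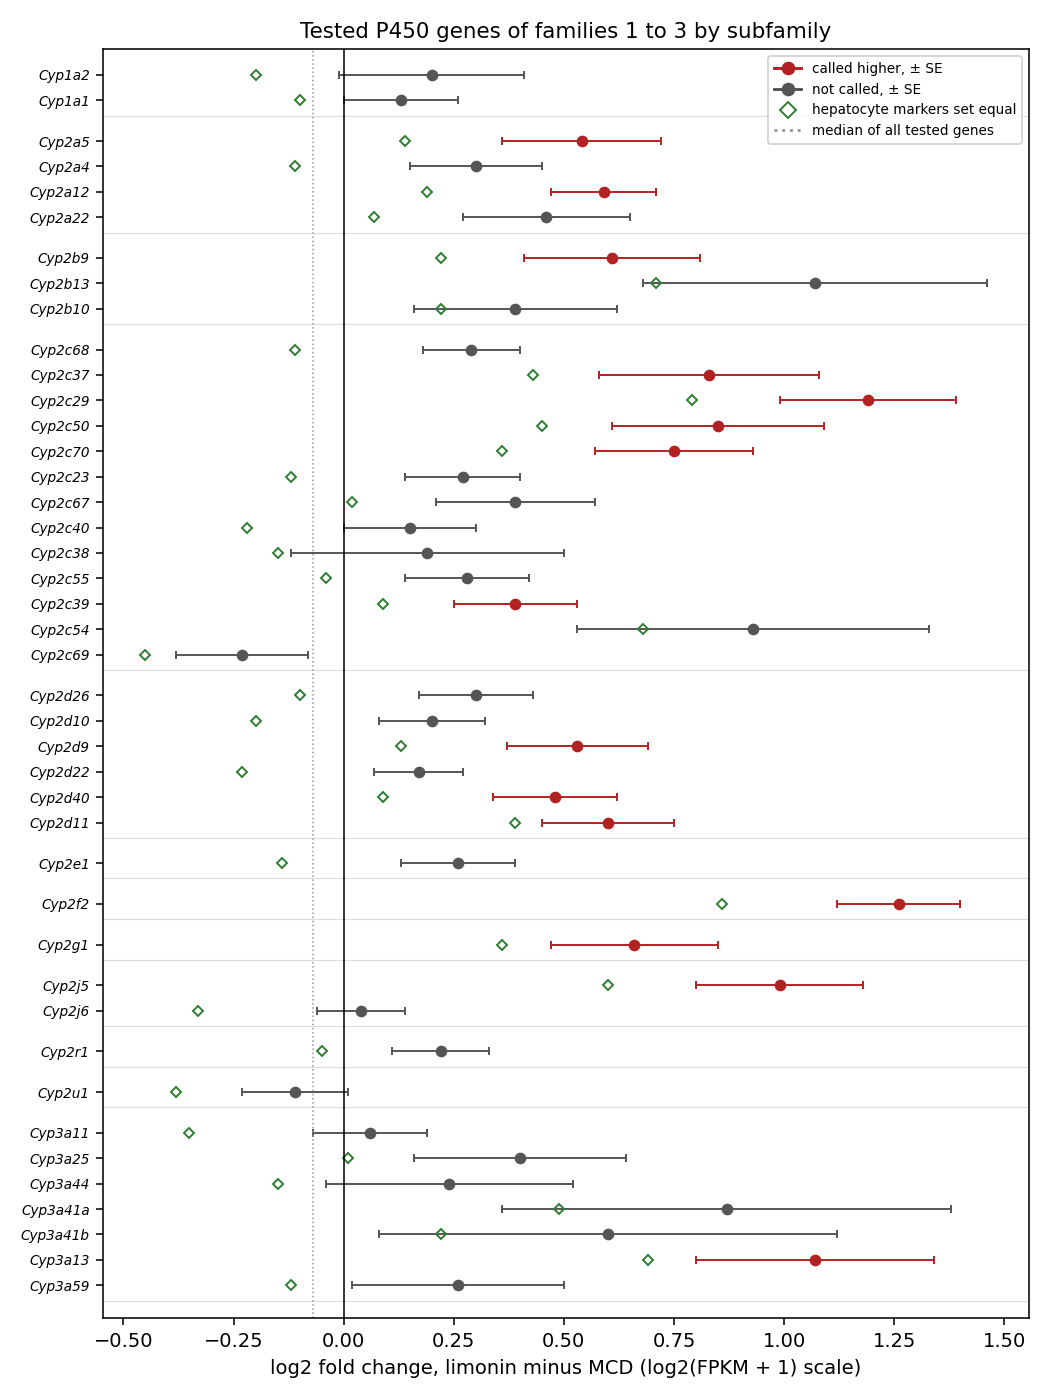
Log2 fold change, limonin minus MCD, of log2(FPKM + 1) for the 42 tested members, grouped by subfamily, with SE; filled red points are called higher, grey points not called, and open diamonds give the value with the hepatocyte markers set equal between libraries. The 15 called members lie between 0.39 and 1.26, and the dotted line marks the median of all tested genes at -0.07.

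The upstream sequences of the 4 called members with the largest log2 fold changes are shown with those of the genes most used as readouts of the 3 receptors. Each runs from 250 bases before to 50 bases after the RefSeq start (GRCm38.p6), 5′ to 3′ on the strand of the gene, and capitals mark AGGTCA and AGTTCA, half-sites bound by nuclear receptors, and GCGTG, the core of the element bound by AhR, on either strand.
Cyp2f2, chr7:27119705-27120004, plus strand: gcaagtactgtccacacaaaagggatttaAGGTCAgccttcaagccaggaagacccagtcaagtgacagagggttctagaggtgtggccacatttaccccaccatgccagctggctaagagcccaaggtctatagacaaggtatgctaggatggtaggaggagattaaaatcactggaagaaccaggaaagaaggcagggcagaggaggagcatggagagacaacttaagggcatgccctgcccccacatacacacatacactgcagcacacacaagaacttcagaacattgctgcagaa
Cyp2c29, chr19:39286835-39287134, plus strand: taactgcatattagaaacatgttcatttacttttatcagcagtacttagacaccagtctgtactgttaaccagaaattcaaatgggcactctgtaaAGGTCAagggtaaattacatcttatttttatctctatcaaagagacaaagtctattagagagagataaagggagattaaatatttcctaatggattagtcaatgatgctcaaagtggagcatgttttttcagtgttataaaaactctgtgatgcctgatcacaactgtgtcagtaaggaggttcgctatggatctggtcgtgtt
Cyp3a13, chr5:137921570-137921869, minus strand: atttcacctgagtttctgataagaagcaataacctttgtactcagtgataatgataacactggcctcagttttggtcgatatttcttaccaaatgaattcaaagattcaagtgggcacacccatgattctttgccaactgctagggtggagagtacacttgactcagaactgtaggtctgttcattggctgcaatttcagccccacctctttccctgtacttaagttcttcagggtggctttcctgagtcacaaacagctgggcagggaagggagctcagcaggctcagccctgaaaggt
Cyp2j5, chr4:96664070-96664369, minus strand: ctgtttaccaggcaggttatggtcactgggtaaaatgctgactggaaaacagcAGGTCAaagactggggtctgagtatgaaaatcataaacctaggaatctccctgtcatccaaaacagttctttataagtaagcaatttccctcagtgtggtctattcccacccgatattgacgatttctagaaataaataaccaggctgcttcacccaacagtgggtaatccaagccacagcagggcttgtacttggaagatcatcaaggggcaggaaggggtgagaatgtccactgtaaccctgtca
Cyp1a1, chr9:57697363-57697662, plus strand: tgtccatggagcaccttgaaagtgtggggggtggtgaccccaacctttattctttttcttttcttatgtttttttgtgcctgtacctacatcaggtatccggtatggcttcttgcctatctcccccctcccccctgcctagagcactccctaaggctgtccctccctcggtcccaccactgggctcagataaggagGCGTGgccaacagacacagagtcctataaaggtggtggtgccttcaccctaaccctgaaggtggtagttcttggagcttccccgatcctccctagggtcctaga
Cyp2b10, chr7:25897408-25897707, plus strand: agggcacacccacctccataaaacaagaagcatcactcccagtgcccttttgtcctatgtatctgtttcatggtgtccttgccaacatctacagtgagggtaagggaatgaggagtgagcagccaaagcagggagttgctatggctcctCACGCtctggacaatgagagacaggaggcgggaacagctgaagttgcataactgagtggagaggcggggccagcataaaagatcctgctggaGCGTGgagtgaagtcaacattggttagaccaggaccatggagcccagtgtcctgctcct
Cyp3a11, chr5:145879805-145880104, minus strand: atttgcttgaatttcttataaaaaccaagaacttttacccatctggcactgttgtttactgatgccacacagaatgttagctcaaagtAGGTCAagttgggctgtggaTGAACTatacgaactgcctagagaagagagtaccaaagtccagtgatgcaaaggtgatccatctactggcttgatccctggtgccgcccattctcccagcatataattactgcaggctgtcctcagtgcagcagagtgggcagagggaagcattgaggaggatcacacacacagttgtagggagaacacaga

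AGGTCA lies 221 bases before the start of Cyp2f2, 154 before that of Cyp2c29, 197 before that of Cyp2j5 and 162 before that of Cyp3a11, and AGTTCA lies 142 before that of Cyp3a11. GCGTG lies 54 bases before the start of Cyp1a1 and 101 and 9 before that of Cyp2b10, and the window of Cyp3a13 holds none of the 3. RefSeq windows were found for 49 members, among them 14 of the 15 that rose and 23 of the other tested members. AGGTCA, on either strand, was found in 8 of the 14 and 6 of the 23, and in 16.3% of all 32851 promoter windows of this length. In Cyp2a5 and Cyp2d40 of the 14, and in Cyp2a4 of the 23, the match lies after the start. Cyp2c39 has more than 1 window. Its AGGTCA lies only in the window at chr19:39347096-39347395, away from the gene at 39510862 to 39568529. AGTTCA was found in 2 and 5, and in 14.0% of all windows. GCGTG was found in 0 of the 14 and 4 of the 23, against 32.4% of all windows. Neighbouring P450 genes arose as copies of each other, so these windows are not independent, and a match is a description of letters. Sequence more than 250 bases before the start was not searched, so receptor elements farther away are not covered. Of motifs for liver-enriched factors, AAGTCCA (an HNF4-type element) lay in 1 and 8 and in 4.2% of all windows, GTTAAT (an HNF1 half-site) in 1 and 5 and in 7.1%, and TTGCNNAA (C/EBP) in 3 and 7 and in 10.8%. TATAAA was found in 9 of the 14 and 16 of the 23, against 13.6% of all windows.

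Subfamily 1a, induced through AhR, showed no call. Cyp1a2, a caffeine-metabolising enzyme made constitutively in liver, had 154, 149.8, 239.6, 167, 258 and 304 FPKM in limonin libraries 1 to 6 and 133, 211, 231, 187 and 148 FPKM in MCD libraries 1 to 5. The ranges overlapped, with limonin 6 the highest of all and MCD 1 the lowest. Its log2 fold change was 0.20 ± 0.21 (SE, adjusted p = 0.508, limma), and the 95% interval of the fold on the FPKM + 1 scale ran from 0.84 to 1.56. Cyp1a1, the classical induced target of AhR, was low throughout, at 1.34 to 2.28 FPKM with limonin and 1.14 to 2.18 FPKM with MCD, with an interval of 0.91 to 1.32. Cyp1b1, an AhR target expressed mainly outside hepatocytes, lay under the filter at 0.135 to 0.303 FPKM with limonin and 0.331 to 0.43 FPKM with MCD. With no filter its log2 fold change was -0.18 (adjusted p = 0.0648, limma), and the authors' deposited table marks it as lower, at a ratio of 0.582. Of 7 tested AhR targets outside the P450s, 1 rose (14.3%, beside 7.24% of all tested genes), 0 fell and 6 were not called. The 1 was Ugt1a6a, a glucuronosyltransferase (0.80 ± 0.20, adjusted p = 0.0126, limma). Those not called were Ugt1a6b (1.24 ± 0.52, adjusted p = 0.1), Ugdh (0.41 ± 0.17, adjusted p = 0.0806), Gsta1 (-1.04 ± 0.47, adjusted p = 0.124), Lrat (-0.34), Tiparp (0.09) and Nqo1 (-0.22).

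**Figure D2:**
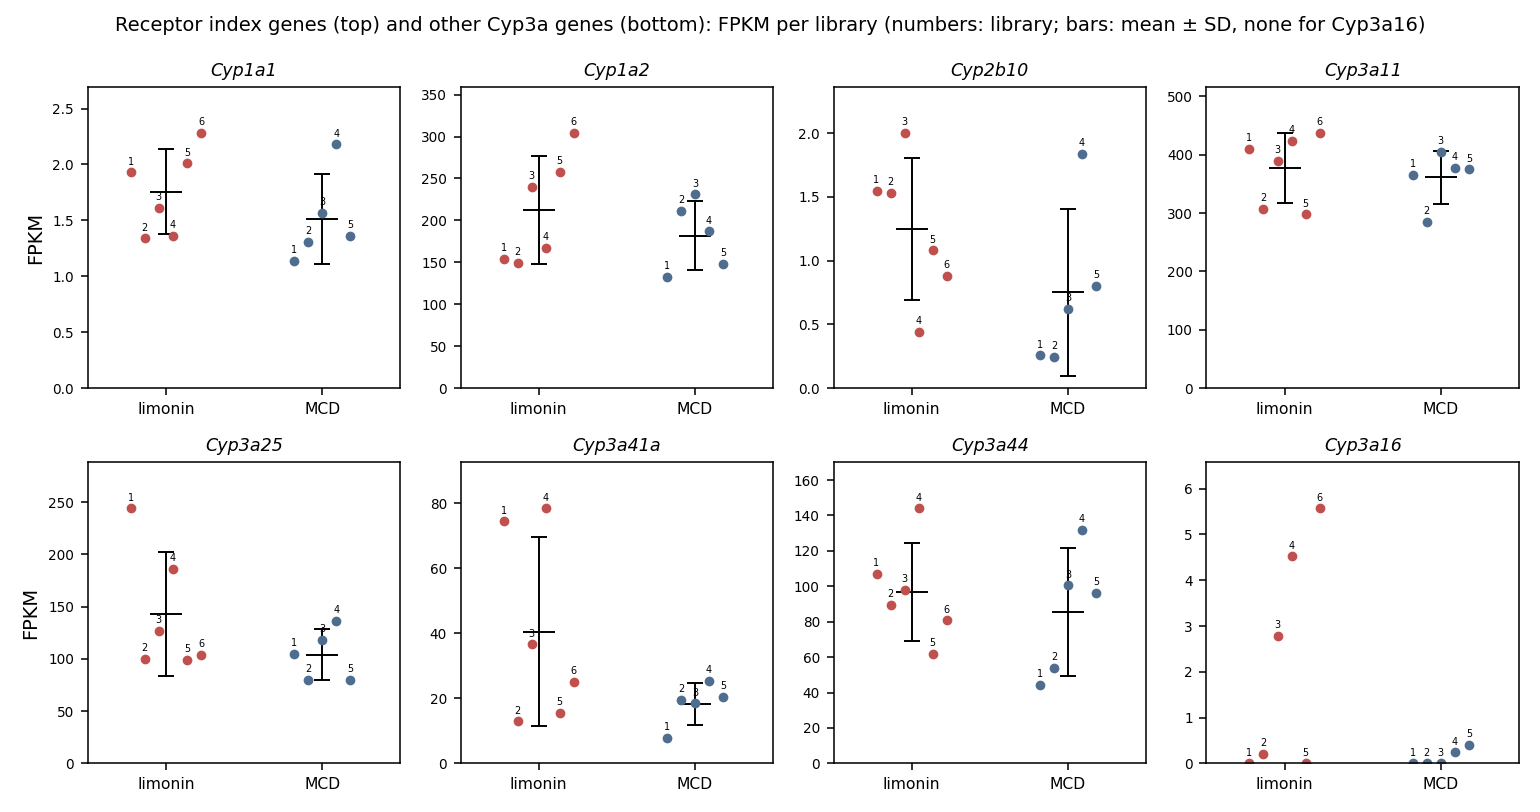
FPKM in each library, numbered by replicate, for Cyp1a1, Cyp1a2, Cyp2b10 and Cyp3a11 (top) and for Cyp3a25, Cyp3a41a, Cyp3a44 and Cyp3a16 (bottom), with limonin left and MCD right; bars give mean ± SD, with none for Cyp3a16, which is listed at 0 in several libraries. The groups overlap in all 8 panels, and limonin 1 and limonin 4 are the highest limonin libraries for Cyp3a25, Cyp3a41a and Cyp3a44.

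Subfamily 2a was the second most abundant after Cyp2e1, with 3161 ± 721 FPKM in sum with limonin and 2287 ± 163 with MCD (SD, n = 6 and 5). Cyp2a5, which hydroxylates coumarin and nicotine, had 1254, 1205, 963, 1743, 1531 and 2157 FPKM in limonin libraries 1 to 6, against 852, 915, 1124, 979.9 and 1053 FPKM in MCD libraries 1 to 5. Limonin 3 lay within the MCD range and the other 5 above it. It rose by 0.54 ± 0.18 on the log2 scale (adjusted p = 0.0399, limma). Cyp2a12, which hydroxylates steroids and bile acids, had 251, 259.5, 249.8, 301, 262 and 339 FPKM with limonin and 157, 168, 173, 204 and 218 FPKM with MCD. Here every limonin library lay above every MCD library, and the gene rose by 0.59 ± 0.12 (adjusted p = 0.00447). With the hepatocyte markers set equal the log2 fold change of Cyp2a12 was 0.19 and the call was lost (adjusted p = 0.266). The Cyp2a5 call was lost without any 1 of limonin 4, 5 and 6 and MCD 1, 2, 4 and 5, with a largest adjusted p of 0.0973. Cyp2a4, a steroid hydroxylase whose longest transcript shares 11.2% of its 100-base windows with other genes, averaged 1323 ± 317 FPKM with limonin and 1054 ± 81.4 FPKM with MCD and was not called, nor was Cyp2a22, at 85.4 ± 13.5 and 63.5 ± 20.8 FPKM. The called members Cyp2a5 and Cyp2a12 share 14.4% and 6.8% of their windows with other genes. Where genes share such windows, the split of fragments between them is uncertain.

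Subfamily 2b holds the CAR target Cyp2b10, which was near the filter. It had 1.55, 1.53, 2, 0.44, 1.08 and 0.88 FPKM in limonin libraries and 0.257, 0.243, 0.619, 1.84 and 0.805 FPKM in MCD libraries. The groups overlapped, with MCD 4 above 5 of the 6 limonin libraries. It was not called (0.39 ± 0.23, adjusted p = 0.219, limma), with an interval of the fold from 0.93 to 1.83. Cyp2b9, a female-predominant member in mouse liver, had 120.2, 86.9, 76.9, 106, 97.5 and 81.8 FPKM with limonin and 45.4, 46.9, 73, 106 and 51.2 FPKM with MCD. All limonin libraries exceeded 4 of the 5 MCD libraries, MCD 4 lying within the limonin range. Cyp2b9 rose by 0.61 ± 0.20 (adjusted p = 0.0404). That call was kept in 3 of the 11 fits without 1 library, those without limonin 3, MCD 3 or MCD 4, with a largest adjusted p of 0.112 otherwise. Cyp2b13, another female-predominant gene, averaged 22.3 ± 7.43 FPKM with limonin and 11 ± 6.93 FPKM with MCD and was not called (1.07 ± 0.39, adjusted p = 0.065). Cyp2b19 and Cyp2b23 did not exceed 0.0304 FPKM in any library.

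Subfamily 2c, enzymes of arachidonic acid, retinoic acid, bile acids and drugs, had the most called members, 5 of 13 tested. Cyp2c29, a CAR target in mouse liver, had 87, 122, 147, 129.8, 137 and 168 FPKM with limonin and 34.8, 57.2, 75.7, 76 and 48.7 FPKM with MCD. All 6 limonin libraries lay above the MCD range, and Cyp2c29 rose by 1.19 ± 0.20 (adjusted p = 0.0027, limma). It also rose by 0.79 ± 0.19 with the hepatocyte markers set equal (adjusted p = 0.00349). Cyp2c70, the mouse enzyme that makes muricholic acids, had 71.4, 109, 53.4, 86.2, 72.1 and 74.7 FPKM with limonin and 29.1, 50.3, 47.9, 53 and 48.1 FPKM with MCD. Limonin 3 stood just above the highest MCD library, and MCD 1 stood apart at the bottom. Cyp2c70 rose by 0.75 ± 0.18 (adjusted p = 0.0101), and by 0.36 with the hepatocyte markers set equal, where the call was lost (adjusted p = 0.0539).

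Cyp2c37 and Cyp2c50, of the chromosome 19 cluster, encode enzymes that oxidise arachidonic acid. They rose by 0.83 ± 0.25 and 0.85 ± 0.24 (adjusted p = 0.0283 and 0.0244, limma). Cyp2c37 had 104, 119, 126, 138, 119 and 181 FPKM with limonin and 40.7, 70.4, 112, 112 and 54.9 FPKM with MCD. Cyp2c50 had 77, 116, 73.6, 88, 68.9 and 127 FPKM with limonin and 25.7, 60, 71.8, 57.6 and 45 FPKM with MCD. Each gene had 1 limonin library inside the MCD range (limonin 1 for Cyp2c37, limonin 5 for Cyp2c50), and MCD 1 was the lowest of all 11 libraries for both. The Cyp2c37 call was lost without limonin 2, 4 or 6 or MCD 1, 2 or 5, and the Cyp2c50 call without limonin 2 or MCD 5, with largest adjusted p of 0.0687 and 0.0579. Cyp2c39, a retinoic acid hydroxylase, was low, with 2.62, 3.53, 3.29, 3.69, 3.13 and 4.6 FPKM with limonin and 1.83, 2.54, 2.94, 3.11 and 1.75 FPKM with MCD. It rose by 0.39 ± 0.14 (adjusted p = 0.0498), with limonin 1 inside the MCD range, and 7 of the 11 fits without 1 library lost the call, those that kept it being without limonin 1, limonin 5, MCD 3 or MCD 4 (largest adjusted p 0.126). Cyp2c68, the most abundant member of 2c, had 141, 140.2, 150.2, 177, 136 and 172 FPKM with limonin and 111, 124, 138, 139 and 113 FPKM with MCD, and was not called (0.29 ± 0.11, adjusted p = 0.0587). The other 7 tested members were not called. They ran from 58.9 ± 9.81 FPKM with limonin and 48.6 ± 7.88 FPKM with MCD for Cyp2c23, an arachidonic acid epoxygenase, down to Cyp2c69, the only one of them with a negative log2 fold change, at -0.23 ± 0.15. Cyp2c54 had 3.12, 10.4, 1.26, 1.12, 1.31 and 4.29 FPKM with limonin and 0.584, 0.876, 1.21, 0.972 and 1.29 FPKM with MCD, so limonin 2 stood well above the rest. Cyp2c40, Cyp2c69, Cyp2c67 and Cyp2c68 share 44.1%, 36.3%, 23.7% and 19.8% of their 100-base windows with other genes. Of the called members, Cyp2c50 and Cyp2c37 share 9.4% and 4.7%, while Cyp2c29, Cyp2c70 and Cyp2c39 share 0%.

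**Figure D3:**
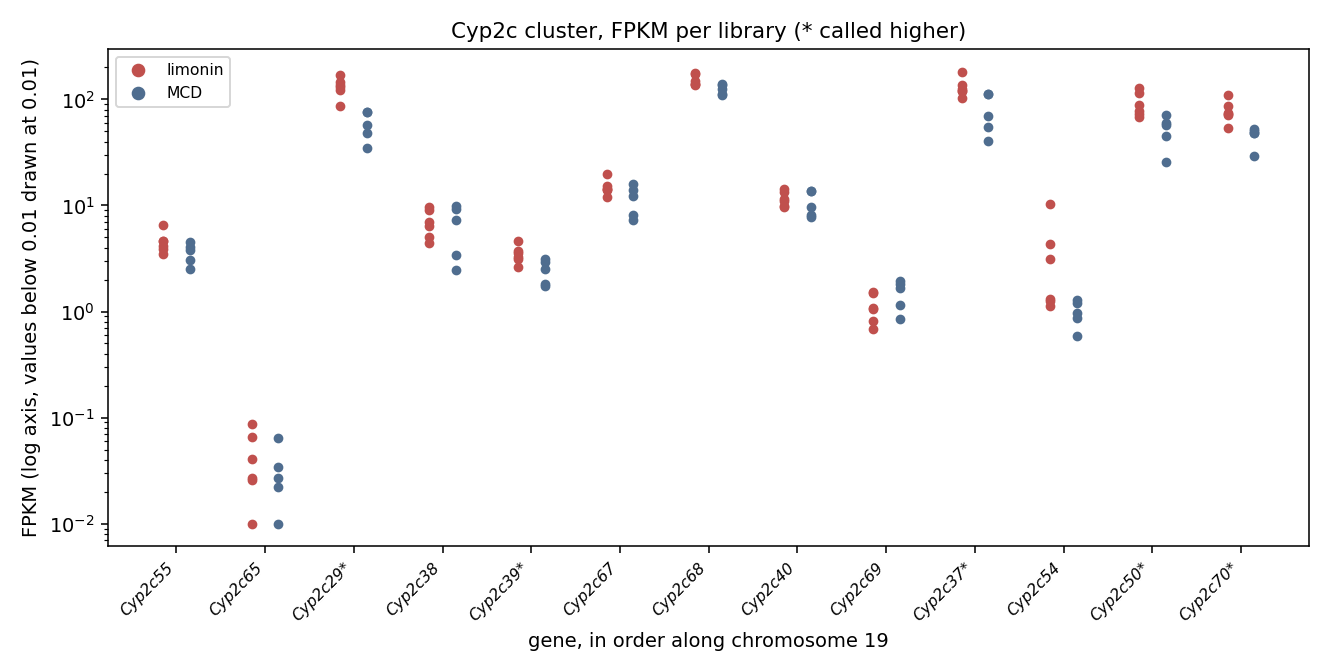
FPKM on a log axis of the 13 Cyp2c genes of the chromosome 19 cluster in each library, with limonin left of MCD and genes in their order along the chromosome; values below 0.01 are drawn at 0.01. The 5 called members, marked with asterisks, lie among members that were not called, and Cyp2c65 lies below 0.1 FPKM throughout.

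Subfamily 2d metabolises amine drugs and steroids, and 3 of its 6 tested members rose. Cyp2d9, a male-predominant steroid hydroxylase of mouse liver, had 187, 225, 213, 203, 240.1 and 312 FPKM with limonin and 123, 126, 158, 194 and 199.8 FPKM with MCD. Limonin 1 lay inside the MCD range, and Cyp2d9 rose by 0.53 ± 0.16 (adjusted p = 0.0271, limma). Cyp2d40 had 32.4, 30, 29, 28.5, 26.9 and 30.7 FPKM with limonin and 16.2, 21, 24.9, 29.4 and 16 FPKM with MCD. The limonin libraries were close together and MCD 4 lay among them, and Cyp2d40 rose by 0.48 ± 0.14 (adjusted p = 0.0244). The call of Cyp2d9 was lost without limonin 6, MCD 1 or MCD 2 (largest adjusted p 0.0844) and that of Cyp2d40 without MCD 1, 2 or 5 (0.0654). Cyp2d11 had 1.51, 1.66, 1.15, 1.94, 1.83 and 2.42 FPKM with limonin and 0.781, 0.496, 0.868, 0.524 and 1.49 FPKM with MCD, with MCD 5 inside the limonin range, and rose by 0.60 ± 0.15 (adjusted p = 0.0108). The transcripts of Cyp2d11 and Cyp2d9 share 12.2% and 9.9% of their windows with other genes, and that of Cyp2d40 shares 0%. Cyp2d11 reached 1 FPKM in 6 limonin libraries and 1 MCD library. It thus entered the test by being high with limonin, and its call adds no support to the count. Cyp2d26, the most abundant member of 2d, had 762, 863, 895, 966, 1179 and 1212 FPKM with limonin and 729, 760.0, 772, 891 and 770.0 FPKM with MCD and was not called (0.30 ± 0.13, adjusted p = 0.0992), nor were Cyp2d10, at 446 ± 59.4 and 388 ± 48 FPKM, and Cyp2d22, at 75 ± 7.56 and 66.7 ± 7.09 FPKM.

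Cyp2e1, which oxidises ethanol, acetone and small solvents in pericentral hepatocytes and can leak reactive oxygen, was the most abundant member. It had 4227, 5807, 5240.3, 5407, 5327 and 6624 FPKM with limonin and 3700.4, 4424, 4946, 5115 and 4417 FPKM with MCD. Of the 6 limonin libraries, 5 exceeded every MCD library and limonin 1 did not. It was not called (0.26 ± 0.13, adjusted p = 0.157, limma), and the interval of the fold ran from 0.98 to 1.46. Cyp2e1 held 43.3% of the summed FPKM of families 1 to 3 with limonin and 46.4% with MCD. Of 11 tested pericentral markers outside the P450s, 2 rose (Tbx3 and Aldh1a1, 18.2%), 1 fell (Nkd1) and 8 were not called. Of all tested genes, 7.24% were called higher and 18.7% lower. The median log2 fold change of the pericentral markers was -0.01.

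Cyp2f2 had the largest log2 fold change and the smallest adjusted p of the 42. This enzyme bioactivates naphthalene and in liver is made by periportal hepatocytes. It had 253, 426, 357, 353, 415 and 425 FPKM with limonin and 152, 131, 136, 187 and 161 FPKM with MCD. The lowest limonin library lay above the highest MCD library, and Cyp2f2 rose by 1.26 ± 0.14 (adjusted p = 0.000778, limma), and by 0.86 ± 0.15 with the hepatocyte markers set equal (adjusted p = 0.000515). Its share of the summed FPKM of the families was 2.96% with limonin and 1.57% with MCD. Of 12 tested periportal markers, 6 were called higher (Hal, Cps1, Arg1, Hsd17b13, Gls2 and Etnppl), 0 lower and 6 were not called. That is 50% higher, beside 7.24% of all tested genes and 36.8% of the hepatocyte markers, a list that also holds Cps1. The periportal list summed to 3797 to 5210.2 FPKM with limonin against 2701 to 3959 FPKM with MCD. Cyp2f2 is also known from airway club cells, and a list of lung epithelium genes summed to 1.58 to 2.4 FPKM with limonin and 3.21 to 11.8 FPKM with MCD, with Sftpd, its single tested gene, lower. Sftpd reached 1 FPKM in 5 MCD libraries and 1 limonin library, so a lower limonin level was built into its entry.

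Cyp2g1, known from nasal epithelium, was low and rose by 0.66 ± 0.19 (adjusted p = 0.022, limma). Its values were 2.62, 4.83, 3.49, 3.99, 5.41 and 6.41 FPKM with limonin and 1.77, 2.09, 2.35, 3.99 and 1.99 FPKM with MCD, with MCD 4 inside the limonin range. The call was lost without MCD 1, 2 or 5 (largest adjusted p 0.0606). Cyp2j5, an epoxygenase of arachidonic acid expressed in kidney and liver, had 38.6, 66.6, 39.3, 43.3, 31.2 and 35.7 FPKM with limonin and 22.6, 13.9, 20.3, 27 and 19.7 FPKM with MCD. All limonin libraries lay above all MCD libraries, limonin 2 standing highest, and Cyp2j5 rose by 0.99 ± 0.19 (adjusted p = 0.0035), and by 0.60 ± 0.16 with the hepatocyte markers set equal. Its paralogue Cyp2j6 had 10.6 ± 1.37 FPKM with limonin and 10.3 ± 0.944 FPKM with MCD (0.04 ± 0.10, adjusted p = 0.811).

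Cyp2r1, a vitamin D hydroxylase, had 2.12, 2.74, 2.39, 2.4, 1.57 and 2.06 FPKM with limonin and 1.97, 1.55, 1.82, 2 and 1.39 FPKM with MCD and was not called (0.22 ± 0.11, adjusted p = 0.149, limma). Cyp2u1, a fatty acid hydroxylase, had 2.5, 1.51, 1.69, 1.79, 2.52 and 1.95 FPKM with limonin and 2.18, 2.62, 1.71, 2.54 and 2.04 FPKM with MCD. It was not called either (-0.11 ± 0.12, adjusted p = 0.52), with overlapping groups.

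**Figure D4:**
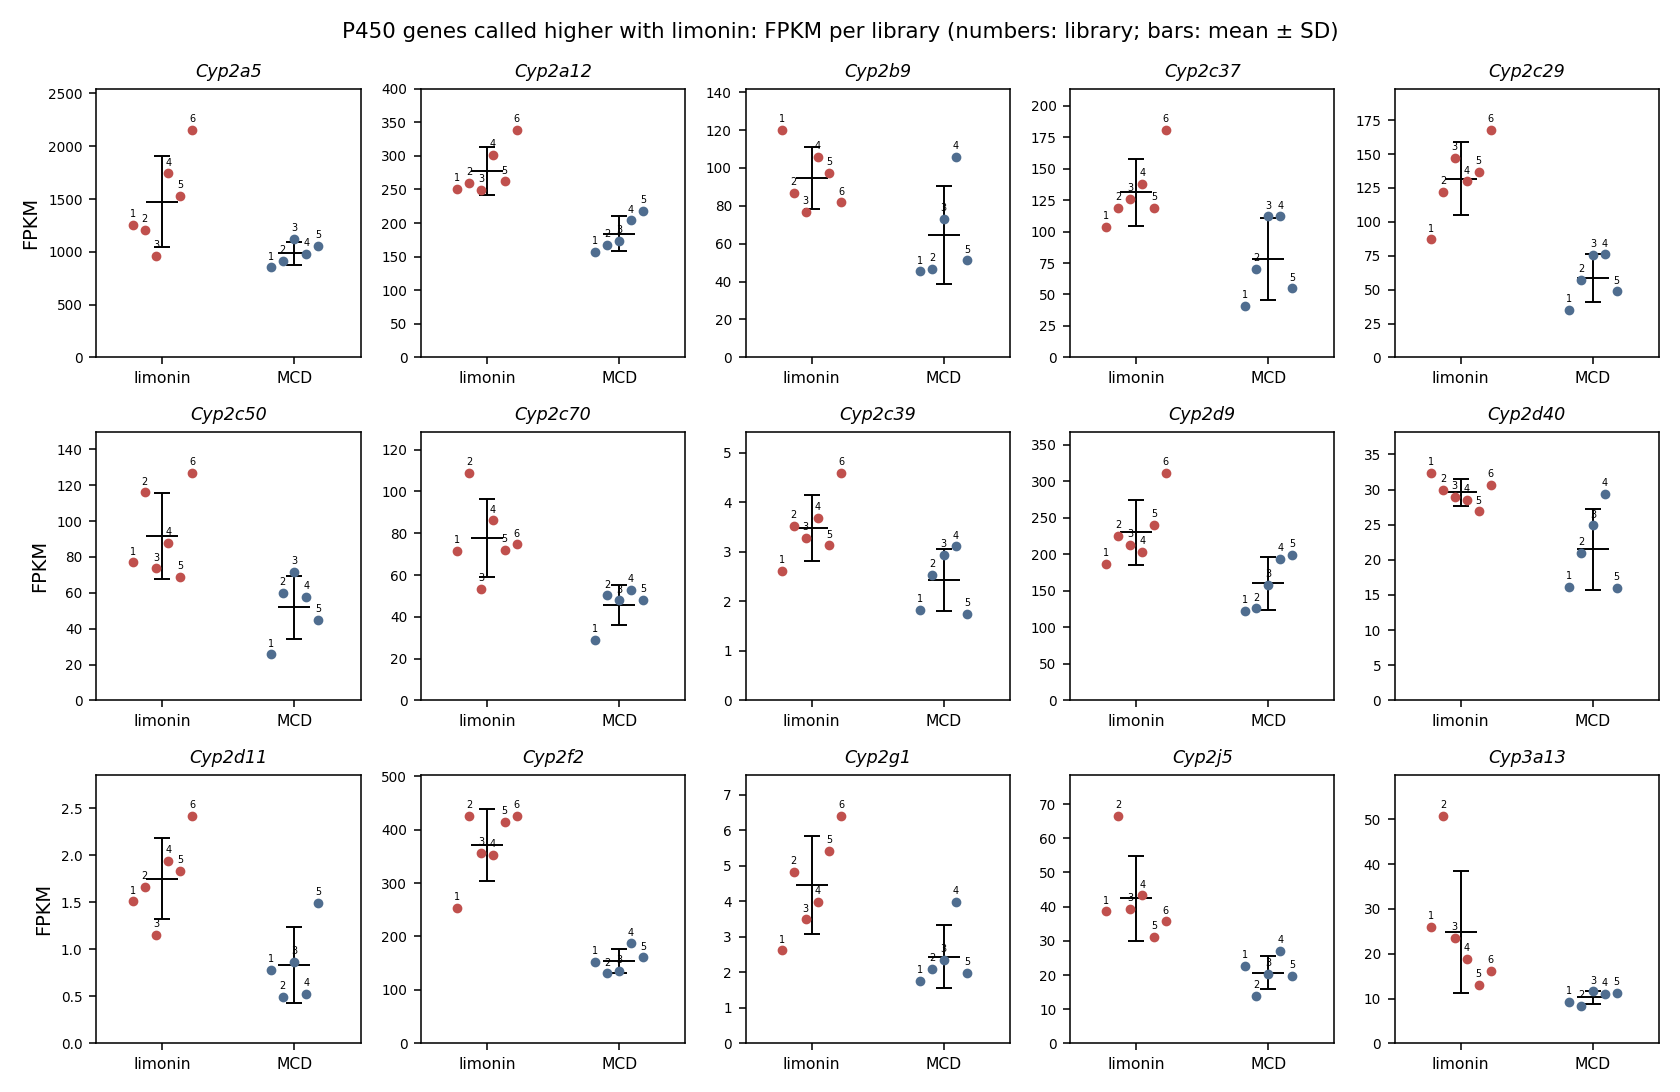
FPKM of the 15 called members in each library, limonin left and MCD right, with mean ± SD bars. In Cyp2a12, Cyp2c29, Cyp2c70, Cyp2f2, Cyp2j5 and Cyp3a13 the lowest limonin library lies above the highest MCD library, and in the other 9 the groups overlap.

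In family 3, Cyp3a13 rose and the other 6 tested members were not called. Cyp3a13, a drug and steroid oxidase that lies on chromosome 5 at 137892932 to 137921619, apart from the other Cyp3a genes at 145345279 to 146113287 (GRCm38, GENCODE M21), had 26, 50.8, 23.6, 18.8, 13.1 and 16.2 FPKM with limonin and 9.31, 8.31, 11.6, 11 and 11.3 FPKM with MCD. All limonin libraries exceeded all MCD libraries, limonin 2 by the widest margin. Its log2 fold change was 1.07 ± 0.27 (adjusted p = 0.0148, limma), and 0.69 ± 0.21 with the hepatocyte markers set equal. Cyp3a11, the main drug-metabolising member and readout of PXR, had 409.9, 307, 389, 424, 298 and 437 FPKM with limonin and 365, 285, 405, 377 and 375 FPKM with MCD. The groups overlapped throughout, and the interval of the fold ran from 0.85 to 1.27 (0.06 ± 0.13, adjusted p = 0.788). Cyp3a25, Cyp3a41a, Cyp3a41b, Cyp3a44 and Cyp3a59 were not called either. Cyp3a41a, a female-predominant member, had 74.5, 12.9, 36.6, 78.5, 15.5 and 25 FPKM with limonin and 7.9, 19.6, 18.5, 25.3 and 20.4 FPKM with MCD, with limonin 1 and 4 far above the rest. Its near-copy Cyp3a41b, which shares 88.2% of its 100-base windows with it, had the same 2 libraries on top. The log2 fold changes of these 5 ran from 0.24 (Cyp3a44) to 0.87 (Cyp3a41a), with adjusted p of 0.234 to 0.55. Cyp3a16, a female-predominant and fetal form, was not tested. It is listed at 0, 0.203, 2.79, 4.52, 0 and 5.57 FPKM with limonin and at 0, 0, 0, 0.238 and 0.397 FPKM with MCD.

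The 14 members that did not pass the filter were Cyp1b1, Cyp2b19, Cyp2b23, Cyp2c65, Cyp2d12, Cyp2d34, Cyp2j8, Cyp2j9, Cyp2j12, Cyp2s1, Cyp2t4, Cyp2w1, Cyp3a16 and Cyp3a57. Their highest mean was 1.25 FPKM and their highest value 5.57 FPKM, both of Cyp3a16. With no filter, 0 of the 14 were called (limma), and Cyp1b1 and Cyp2j8 had an unadjusted p under 0.05 (0.00591 and 0.0151). Across the genome the tested members lie in clusters, of which chromosome 7 (25802475 to 27158668) held 5 called of 9 tested members of 2a, 2b, 2f and 2g, chromosome 19 (39007019 to 40187333) 5 of 12, chromosome 15 (82370527 to 82794294) 3 of 6, chromosome 4 (96099318 to 96664154) 1 of 2 and the main Cyp3a cluster of chromosome 5 0 of 6.

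The libraries ranked alike for many members. MCD 1 was the lowest MCD library for 26 of the 42 tested members and MCD 4 the highest for 26. Limonin 6 was the highest limonin library for 18 and the lowest for 0, and limonin 5 was the lowest for 13. Summed over all 56 genes, families 1 to 3 reached 12558 ± 1692 FPKM with limonin and 9740.4 ± 1072 FPKM with MCD, a ratio of 1.29, but with the hepatocyte markers set equal the log2 ratio of these sums was -0.02. By subfamily the ratio of mean sums was 2.42 for 2f, 1.83 for 2g, 1.70 for 2j, 1.55 for 2b and for 2c, 1.38 for 2a, 1.24 for 2d, 1.20 for 2e and for 3a and 1.17 for 1a. With the hepatocyte markers set equal, the log2 ratios of 2d, 2e, 3a and 1a were below 0, at -0.08, -0.13, -0.11 and -0.16, while those of 2f, 2g, 2j, 2b, 2c and 2a were above 0, at 0.87, 0.48, 0.35, 0.26, 0.25 and 0.08.

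Genes that control, supply or accompany these enzymes were counted by list, beside 7.24% of all tested genes called higher and 18.7% called lower. Of 17 tested xenobiotic receptors and partners, 2 rose and 2 fell (11.8% each way), near or below those shares. Ppara and Hnf4a rose (0.75 ± 0.21 and 0.45 ± 0.14, adjusted p = 0.0219 and 0.0344, limma), and Cebpb was among those that fell (-0.41 ± 0.12, adjusted p = 0.0238). Without MCD 2 the calls of Ppara, Hnf4a and Cebpb were lost, and 10, 4 and 8 of the 11 fits without 1 library kept them, with largest adjusted p of 0.0526, 0.0732 and 0.0578. Nr1i2, which encodes PXR, was at 23.8 ± 3.32 FPKM with limonin and 25.2 ± 3.74 FPKM with MCD, Nr1i3, which encodes CAR, at 53.5 ± 19.6 and 64 ± 9.05 FPKM, and Ahr at 3.17 ± 1.56 and 2.15 ± 0.304 FPKM, and these 3 were not called. Of 29 targets of CAR and PXR outside the P450s, 7 rose (24.1%), among them the glucuronosyltransferase genes Ugt2b35 (0.82 ± 0.12, adjusted p = 0.00137) and Ugt2b34 (0.80 ± 0.16), and Gadd45b, a stress-response gene, fell (-0.84 ± 0.20). The P450 reductase gene Por stood at 148 ± 35.4 FPKM with limonin and 146 ± 21 FPKM with MCD. Of 7 electron donors and heme-binding partners of P450s, 2 rose (28.6%) and 0 fell. The 2 were the donor Cyb5b, a cytochrome b5 of the outer mitochondrial membrane, and the partner Pgrmc1 (0.57 ± 0.11 and 0.59 ± 0.15). Of 13 heme genes 2 rose (15.4%) and 3 fell. The synthesis enzymes Cpox and Fech rose (0.89 ± 0.16 and 0.47 ± 0.12), while Hmox1, which breaks heme down, fell to 18.9 ± 2.15 FPKM with limonin, against 45.7 ± 20.4 FPKM with MCD, and Ppox and Blvra also fell. Alas1, the rate-limiting synthesis enzyme, was not called (-0.20 ± 0.25).

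Of 14 tested male-biased liver genes outside P450 families 1 to 3, 7 rose and 0 fell (50% higher, beside 7.24% of all tested genes). The list holds P450s of other families: Cyp7b1 was called higher (0.70 ± 0.14, adjusted p = 0.004, limma), while Cyp4a12a and Cyp4a12b were not called. Elovl3, also called, reached 1 FPKM in 6 limonin and 3 MCD libraries. A higher limonin level was thus built into its entry, and its call adds no support. Mup3, a urinary pheromone carrier, rose as well, with 174 ± 36.2 FPKM with limonin and 71.8 ± 33.2 FPKM with MCD. Of 6 tested female-biased genes, of 12 listed, 3 rose (50%), among them Abcd2 and Slc22a26, and the sulfotransferase gene Sult2a2 fell (-2.86 ± 0.49, adjusted p = 0.00374, limma). Sult2a2 reached 1 FPKM in 5 MCD and 2 limonin libraries, so a lower limonin level was built into its entry. The calls of Abcd2 and Slc22a26 were each lost without MCD 2 and without MCD 5, with largest adjusted p of 0.0806 and 0.0653. Of the members of families 1 to 3 named above as sex-biased, the male-predominant Cyp2d9 and the female-predominant Cyp2b9 were called higher. Both calls were lost with the hepatocyte markers set equal. The female-predominant Cyp2b13 and Cyp3a41a were not called, and Cyp3a16 was not tested. Of the remaining markers, 0 of 3 intestinal and 0 of 1 pancreatic genes were called. The kidney list had 0 tested genes and summed to at most 0.0604 FPKM with limonin and 0.0677 FPKM with MCD.

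The authors' deposited table marks 11 of the 56 members as higher and 1 as lower (Cyp1b1), against 3.73% and 6.92% of all 31280 genes. These bases are unlike, since 10489 of the 31280 genes but 42 of the 56 members passed the filter used here. The 11 include Cyp2c54, not called here, and leave out Cyp2a5, Cyp2b9, Cyp2c39, Cyp2d40 and Cyp2d9. Each of those left out has a deposited q under 0.05, from 0.0062 (Cyp2a5) to 0.0271 (Cyp2c39), in the authors' unnamed test. Their deposited folds run from 1.38 (Cyp2d40) to 1.5 (Cyp2a5, rounded). By a deposited q under 0.05 alone, with no bound on the fold, 20 members are higher and 1 is lower. Its smallest fold marked higher is 1.5.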

How the data were processed

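Poly(A) liver RNA was sequenced from 6 limonin and 5 MCD libraries, after the labels' protocols. The submitters' processing notes name cutadapt 1.9, HISAT2 2.0.4 and StringTie 1.3.4d and a human build, GRCh38, although the gene identifiers are those of mouse. The library protocol marks the strand, per the labels' protocols, and the sources used here do not say whether quantification used it.

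Per the file headers, each library's values in the deposited table are FPKM. Per the same headers, the authors added for every gene a ratio of limonin over MCD means, the log2 of that ratio, and a p-value with a q-value, from a test those headers do not name. The values are not counts, so the depth is unknown and no counting interval is given. No FPKM column was left without a sample (0), and 0 pairs of libraries held the same values.

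Values were tested as log2(FPKM + 1) for the 10489 of 31280 genes that reached 1 FPKM in 5 or more libraries. The test was limma 3.58.1 (R 4.3.3), two-sided, with trend and robust variance, no covariate and the Benjamini-Hochberg adjustment over all tested genes at 0.05. The added 1 makes the fold of low genes appear smaller than it is. Replicates are separate mice by the design text, so p-values measure the spread between them. The procedure was tested on simulated data. Tables and figures were made with Python 3.11.15, pandas 2.3.3, numpy 2.4.6 and matplotlib 3.10.9. Positions are from GENCODE M21 (GRCm38), where 31191 of 31280 identifiers and all 56 members were found, and promoters are from RefSeq (GRCm38.p6). Shared sequence is the percent of 100-base windows of a member's longest transcript found in a transcript of any other gene.

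The members and the lists of markers and pathway genes were chosen with earlier results of these data known. Values per library are given for every called member and for the most abundant member of each subfamily that passed the filter, and up to 4 genes of each pathway list are named by smallest p. Genes named beside these were chosen after their values were seen, and a few genes that the rule takes are not reported here. Alternatives changed the filter (none, 5 FPKM), the pseudocount (0.1, 0.01), the scaling (median ratio, quantile, equal sum, equal hepatocyte markers), the variance model (without trend, with library weights), the block (replicate number) and the libraries (each left out, limonin 5 and 6, MCD 4 and 5), or took the authors' marks.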

Additional observations from a re-analysis of the deposited data

Results flagged for a closer look

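In 12 of 116 groups of libraries examined, 1 library lay far from the others of its group, where chance gives about 1 in 20. Among P450 members, Cyp3a13 was at 50.8 FPKM in limonin 2 against 13.1 to 26 FPKM in the other limonin libraries, and Cyp2j5 at 66.6 FPKM in limonin 2 against 31.2 to 43.3 FPKM. Cyp2c70 was at 29.1 FPKM in MCD 1 against 47.9 to 53 FPKM in the other MCD libraries. In MCD 4, Cyp2d26 was at 891 FPKM against 729 to 772 FPKM and Cyp2g1 at 3.99 FPKM against 1.77 to 2.35 FPKM. Among genes of the pathway lists, Ppara was at 16.8 FPKM in limonin 2 against 4.93 to 8.7 FPKM, and Gadd45b at 3.68 FPKM in limonin 2 against 8.12 to 10.7 FPKM. Sult2a2 was at 2.97 FPKM in limonin 4 against 0.484 to 1.26 FPKM. In limonin 5, Ugt2b35 was at 52.5 FPKM against 71.6 to 78.4 FPKM and Mup11 at 67.4 FPKM against 18.2 to 31.6 FPKM. Mup3 was at 130.0 FPKM in MCD 4 against 47.3 to 64 FPKM, and Pgrmc2 at 13.3 FPKM in MCD 2 against 15.1 to 15.8 FPKM.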

How the results depend on the processing

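The number of P450 members called higher, 15, was 7 with no filter, 12 with a filter at 5 FPKM, 14 to 15 with other pseudocounts, 15 with no trend and 16 with library weights, and 16 to 19 under median-ratio, quantile and equal-sum scaling. With the hepatocyte markers set equal it was 5, with 3 called lower. With limonin 5 and 6 left out it was 10, with MCD 4 and 5 left out 15, and leaving out 1 library gave 8 to 18. The authors' deposited table marks 11 higher and 1 lower, and in every other alternative 0 were lower. Correlations of deviations from group means between same-numbered libraries ran from -0.235 to 0.204. Differently numbered libraries were not set beside them, so whether the replicate numbers pair the libraries was not settled. With the replicate number as a block, which leaves out limonin 6, 9 members were called higher, and Cyp3a13 was not (1.15, adjusted p = 0.057). The cause of these differences was not tested.

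With the hepatocyte markers set equal, 17 of the 40 positive log2 fold changes of tested members turned negative. Of these, Cyp2j6 was called lower there (-0.33, adjusted p = 0.0466, limma) and the other 16 were not called: Cyp1a1 (-0.10), Cyp1a2 (-0.20), Cyp2a4 (-0.11), Cyp2c23 (-0.12), Cyp2c38 (-0.15), Cyp2c40 (-0.22), Cyp2c55 (-0.04), Cyp2c68 (-0.11), Cyp2d10 (-0.20), Cyp2d22 (-0.23), Cyp2d26 (-0.10), Cyp2e1 (-0.14), Cyp2r1 (-0.05), Cyp3a11 (-0.35), Cyp3a44 (-0.15) and Cyp3a59 (-0.12). Pgrmc2 (-0.16) and Cyb5r3 (-0.25), which are no P450s, turned too. Cyp1a2 was at -0.03 without limonin 5 and 6, Cyp3a11 at -0.03 without MCD 2 (up to 0.12 with another library left out) and Cyp2u1 at 0.02 after quantile normalization. Cyp2c38 also turned negative without MCD 1 and without limonin 5 and 6, and Cyp2j6 without limonin 4 and without MCD 2. With FPKM alone, how far depth limits the low members cannot be given.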
